A study of Mus musculus with 8 samples.

Results

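The Rab genes are those whose symbol is Rab followed by a number and, in some, a letter. They were taken by that symbol pattern alone, which found 41 genes among the 10690 listed in at least 1 of the 3 tables of genes. All 41 were listed for AS against NT, 38 for RC4 against NT, where Rab3a, Rab29 and Rab30 were missing, and 39 for RC8 against NT, where Rab29 and Rab30 were missing. Every listed gene had at least 50 reads in both libraries of its table, and these 3 genes are not described for the tables without them. The libraries come from NIH3T3, a line of proliferating mouse fibroblasts, and were prepared from total RNA with QuantSeq FWD, a protocol that reads the 3′ ends of poly(A)+ transcripts. NT cells were untreated and AS cells were kept in 250 μM sodium arsenite for 1 h. RC4 cells had that hour of arsenite followed by 4 h of recovery in normal medium, and RC8 cells by 8 h. Each condition has 1 library and all 3 comparisons share the NT library, so no difference below has a replicate check. No P value is given, and errors of single genes cover only the counting of reads.

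Rab proteins are small GTPases that mark the membranes of the secretory and endocytic routes. In the GTP-bound state each one recruits effectors such as tethers, motors and kinases. Guanine nucleotide exchange factors (GEFs) switch them on, GTPase-activating proteins (GAPs) switch them off, and a prenyl group added with the help of Rab escort proteins anchors them in the membrane. Many Rab transcripts carry a long 3′UTR that can end at a proximal or a distal poly(A) site (PAS), and the choice sets which regulatory elements the mRNA keeps. Arsenite is an oxidative stress that halts translation and assembles stress granules.

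Depth on genes lay between 22441452 reads (AS) and 22996421 reads (RC8). As a check of the treatment, the number of arsenite-inducible genes called higher, of 12 listed, was 7, 11 and 7 for AS, RC4 and RC8. The shares were 58.3%, 91.7% and 58.3%, against 2.07%, 15.0% and 11.1% of all genes. The list was chosen with earlier results of these data known, so the check is not independent. Of the fibroblast markers 10 of 11 were listed, and of the epithelial and blood markers 0 of 5 and 0 of 6. Of the 10 listed fibroblast markers 3 were called lower in RC4, or 30% against 17.4% of all genes. In RC8 6 were called lower, or 60% against 12.1%. The part of these markers in the Rab changes was not tested. A level is given in RPM, the reads of a gene for each 1000000 reads on listed genes. Since a transcript gives about 1 read position at its 3′ end whatever its length, levels of different genes can be set side by side without dividing by length. A change is the log2 ratio of treated over NT reads minus the median of that ratio over all genes. It was called when it was at least 1.5-fold (0.58 on the log2 scale) and its 95% counting interval left out 0. The reference matters most in RC4, where the median gene lay 0.30 below NT on the log2 RPM scale, against 0.04 below in AS and 0.01 above in RC8.

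In untreated cells the Rab genes spanned from 3.98 RPM for Rab30, a Golgi Rab, to 547 RPM for Rab1a, which directs traffic from the ER to the Golgi. Rab1a was read 15.3 times as often as the median gene in NT and 26.8 times as often in RC4. After it came Rab39 at 289 RPM, Rab2a (ER to Golgi) at 227, Rab14 (between the Golgi and endosomes) at 204, Rab7 (late endosomes and lysosomes) at 187, Rab18 (ER and lipid droplets) at 162 and Rab5c (early endosomes) at 152. Rab11a, a Rab of recycling endosomes, had 146 RPM, Rab21, an early endosomal Rab linked to integrin traffic, 134 RPM, and Rab34, found at the Golgi and in ciliogenesis, 129 RPM. Among close relatives 1 gene mostly led. Rab1b had 32.7 RPM beside Rab1a, Rab2b 7.0 beside Rab2a, Rab8b 29 beside 60.7 for Rab8a, and in the Rab5 group Rab5c was ahead of Rab5b (74.5) and Rab5a (42.1).

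Rab39 has to be read with caution. Its only listed PAS, on chromosome 9 at 53497589 of mm9 on the minus strand, lies in an intron and 50 nt downstream of the end of Rps6-ps3, a pseudogene of a ribosomal protein gene (53497639 to 53498388, same strand). The log2 changes of the parent gene Rps6 were 0.13, 0.34 and −0.39 for AS, RC4 and RC8, and those of Rab39 were 0.13, 0.48 and −0.23. Reads of Rab39 and of the pseudogene cannot be told apart here. Leaving Rab39 out, the counts of called Rab genes were the same, since it was called in no comparison.

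At the end of the 1 h of arsenite 1 Rab gene had a called change in level. The median change was 0.05 (95% order-statistic interval −0.07 to 0.11, n = 41), 0 of 41 were called higher against 2.07% of all genes, and 1 was called lower against 10.2% of all genes. The 1 was Rab3c, a Rab of regulated exocytosis. Its levels in NT, AS, RC4 and RC8 were 12.9, 7.93, 10.0 and 10.5 RPM, which is a change of −0.66 ± 0.14 (counting SE) in AS and of −0.06 ± 0.13 and −0.30 ± 0.13 afterwards. With 291 reads in NT it is thinly covered, and with 1 of the 2 count columns alone it was not called (−0.58). The next lowest values in AS were those of Rab22a (−0.51 ± 0.07), which acts in endosomal sorting, Rab21 (−0.45 ± 0.04) and Rab12 (−0.42 ± 0.05), all short of 1.5-fold. The highest was Rab39b at 0.54 ± 0.18.

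**Figure D1:**
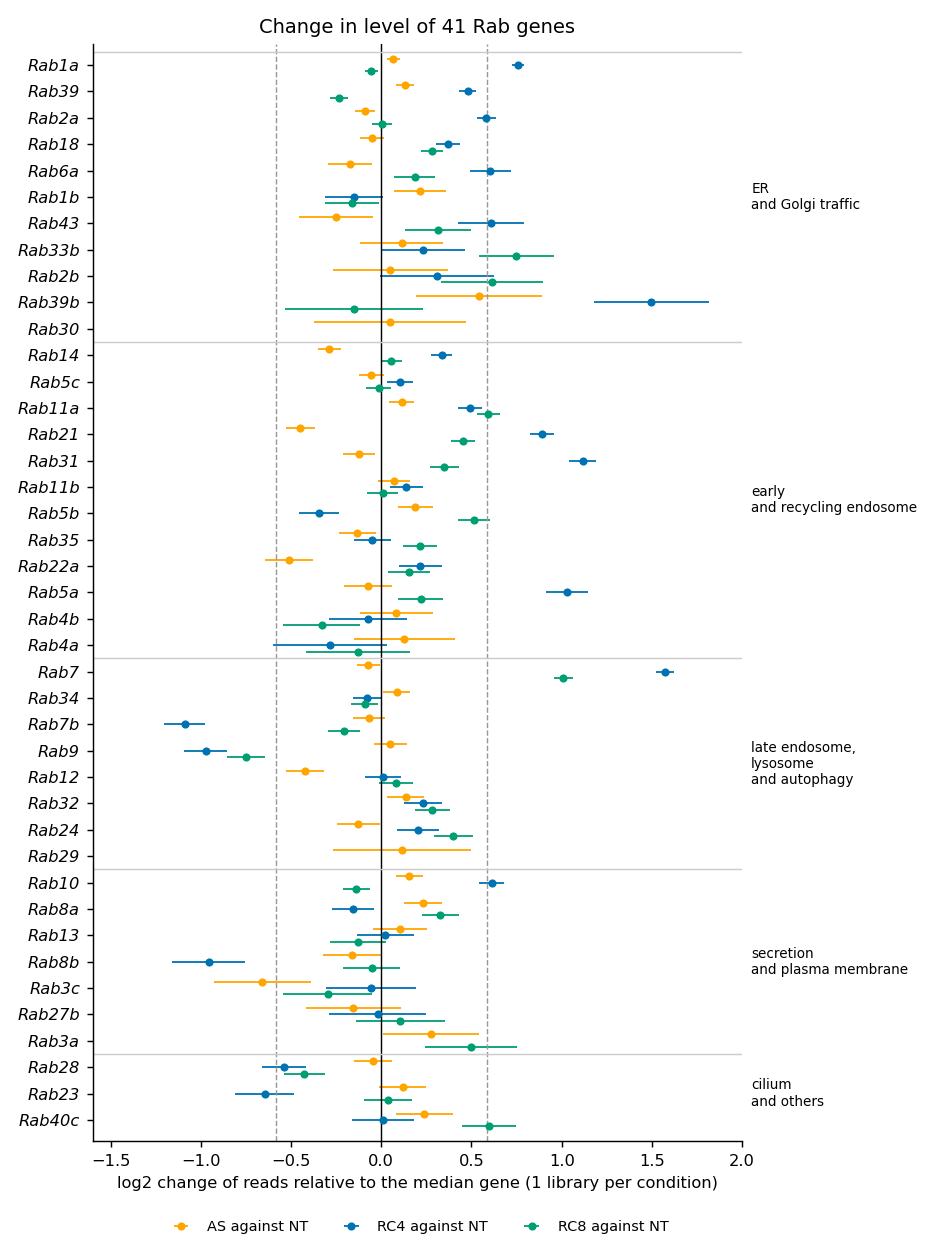
Log2 change of each of 41 Rab genes from NT, relative to the median gene, for the AS, RC4 and RC8 libraries, grouped by site of action and ordered by NT level within a group. Points are single libraries, bars are 95% counting intervals, and dashed lines mark 1.5-fold; the points spread from −1.09 (Rab7b) to 1.57 (Rab7) in RC4, with 0 Rab genes called higher in AS.

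At 4 h of recovery 13 of 38 Rab genes were called, in either direction. Of the 38 Rab genes 9 were higher in RC4 than in NT, or 23.7% against 15.0% of all genes, and 4 were lower, or 10.5% against 17.4%, while 25 were not called. The median change was 0.17 (−0.05 to 0.37) relative to the median gene, but −0.13 when libraries were scaled to RPM, so the direction of the family as a whole depends on the reference. On the RPM scale 5 were called higher (Rab7, Rab39b, Rab31, Rab5a and Rab21) and 7 lower, with Rab4a, Rab5b and Rab28 joining the 4. On that scale the median gene itself lay 0.30 below NT, and the share of all genes called is not given.

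The largest rise was that of Rab7, the GTPase that brings late endosomes and autophagosomes to the lysosome. Rab7 levels in NT, AS, RC4 and RC8 were 187, 173, 451 and 377 RPM. The 2 recovery libraries lie far above the other 2. The change was 1.57 ± 0.03 in RC4 (2.97-fold) and 1.01 ± 0.03 in RC8 (2.01-fold), and 1.27 and 1.02 on the RPM scale. It is the only Rab gene that was called higher in both recovery libraries. The locus lies on chromosome 6 from 87949100 to 87995264 (mm9, minus strand). Its 3′ end lies within the annotated gene Gm5577 on the other strand, and whether the counting used the strand is not given in the sources used here.

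Early and recycling endosome members came next. Rab31, which works between the trans-Golgi and endosomes, had 97.7, 87.3, 172 and 125 RPM in the same 4 libraries. Its RC4 change was 1.12 ± 0.04. Rab5a, the founding early endosome Rab, had 42.1, 38.9, 69.8 and 49.2 RPM in the same order, a change of 1.03 ± 0.06 in RC4. Rab21 had 134, 95.8, 203 and 185 RPM, so that it was lowest in AS and highest in RC4, where it had changed by 0.89 ± 0.03. All 3 were back within 1.5-fold of NT at 8 h, with changes of 0.35, 0.22 and 0.45. In this group 3 of 12 were called higher in RC4, against 15.0% of all genes, and 0 lower, against 17.4%. The median was 0.18.

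Of the ER and Golgi group 4 of 10 were called higher in RC4, against 15.0% of all genes, and 0 lower, against 17.4%. The median was 0.53, and without Rab39 it was 0.58 over 9 genes, 4 of them higher. Rab1a had 547, 557, 751 and 528 RPM in NT, AS, RC4 and RC8. The other libraries lie close together and only RC4 stands above them, by 0.76 ± 0.02. Rab6a, which acts in traffic at the Golgi, had 49.7, 42.9, 61.0 and 56.7 RPM and an RC4 change of 0.60 ± 0.06, and Rab43 (Golgi) had 18.6, 15.2, 23.1 and 23.3 RPM and 0.61 ± 0.09. Rab39b, an X-linked Rab best known from neurons, was at 4.91, 6.95, 11.6 and 4.57 RPM, a change of 1.5 ± 0.16 (2.82-fold) from only 111 reads in NT. Rab2a missed the 1.5-fold size narrowly at 0.58 ± 0.03. Of these Rab1a, Rab6a and Rab43 were not called on the RPM scale (0.45, 0.30 and 0.30).

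In the group of secretion and the plasma membrane, Rab10, which delivers vesicles to the cell surface, had 127, 138, 158 and 116 RPM in NT, AS, RC4 and RC8. Its change in RC4 was 0.61 ± 0.04, or 0.31 on the RPM scale, where it was not called. Rab10os, listed as a gene of its own and named as the transcript opposite to Rab10, went from 16.8 RPM to 31.5 RPM in RC4 (1.21 ± 0.09), and a gene on the opposite strand covers the 3′ end of Rab10. The share of those reads in the Rab10 value was not tested. Genes on the opposite strand also lie within 300 nt of a PAS of Rab1a, Rab3a, Rab5a, Rab39b and Rab40c, and genes on the same strand within 300 nt of one of Rab4a and Rab4b.

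Lower in RC4 were Rab7b, Rab9, Rab8b and Rab23. Rab7b, a relative of Rab7 in the route from late endosomes to the trans-Golgi, had 94.4, 87.5, 36.0 and 82.1 RPM in NT, AS, RC4 and RC8. Its change in RC4 was −1.09 ± 0.06. Rab9, which serves the return of receptors from late endosomes to the trans-Golgi, had 85.4, 86.0, 35.3 and 51.1 RPM, changes of 0.05 ± 0.05, −0.97 ± 0.06 and −0.75 ± 0.05. It is the only Rab gene called lower in both recovery libraries. Rab8b, a Rab of exocytosis and ciliary traffic, had 29, 25.3, 12.1 and 28.0 RPM, and Rab23, a ciliary Rab that restrains Hedgehog signalling, had 39.4, 41.6, 20.4 and 40.6 RPM. These 2 stood apart in RC4 alone, with changes of −0.96 ± 0.10 and −0.65 ± 0.08. Rab28, also ciliary, was next at −0.54 ± 0.06, short of 1.5-fold.

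**Figure D2:**
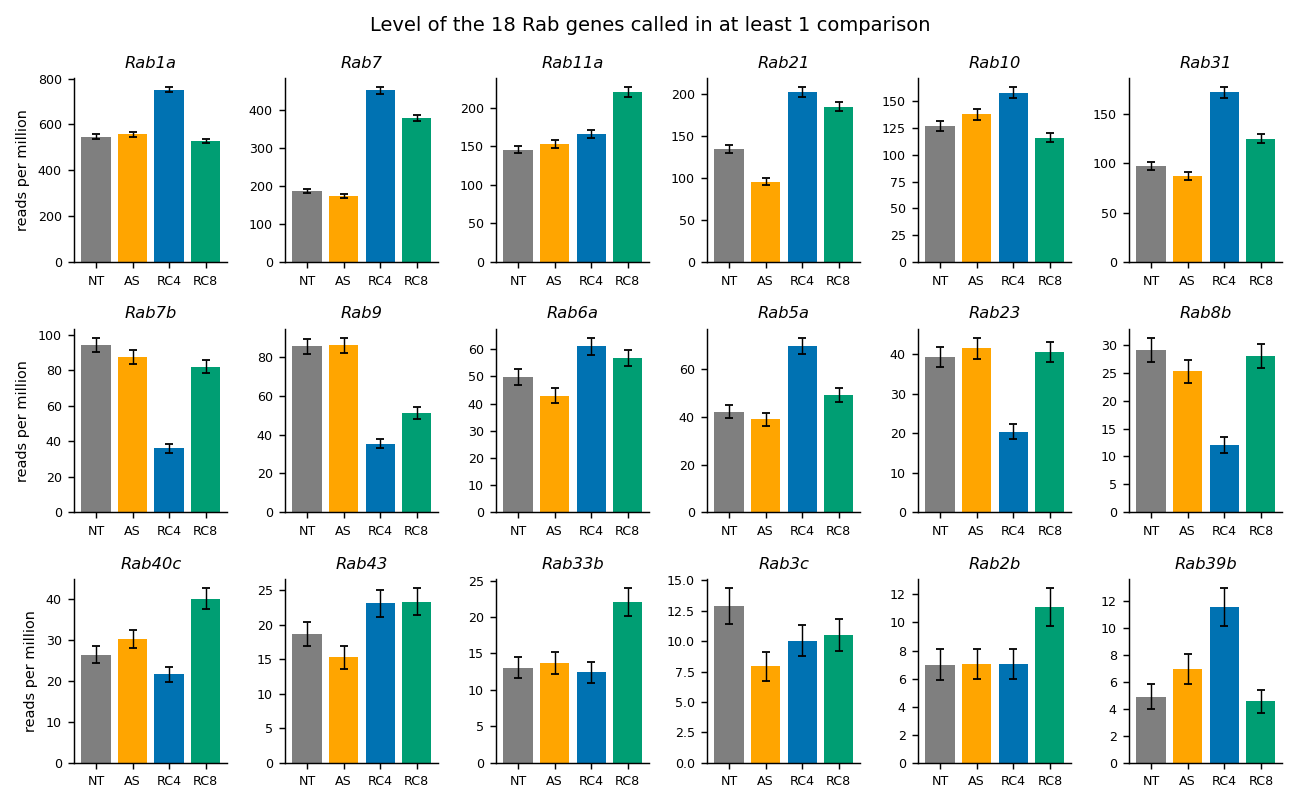
Level in RPM of each of the 18 Rab genes called in at least 1 comparison, in the 1 library of each condition, with 95% Poisson counting intervals as bars. Each panel has its own axis from 0; Rab7 stands at 451 in RC4 and 377 in RC8 against 187 in NT, whereas Rab7b, Rab8b and Rab23 are low in RC4 only.

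By 8 h of recovery fewer Rab genes differed from NT. Of 39 Rab genes 5 were higher, or 12.8% against 11.1% of all genes, and 1 was lower, or 2.56% against 12.1%. The median change was 0.08 (−0.06 to 0.28). Besides Rab7 the 5 were genes that had not been called at 4 h. Rab11a had 146, 153, 166 and 221 RPM in NT, AS, RC4 and RC8 (0.59 ± 0.03). Rab33b, which links the Golgi to autophagosome formation, had 13.1, 13.7, 12.4 and 22.0 RPM (0.75 ± 0.11). Rab2b had 7.0, 7.04, 7.03 and 11.1 RPM (0.61 ± 0.14). Rab40c, which carries a SOCS box and serves a ubiquitin ligase, had 26.4, 30.3, 21.6 and 40.0 RPM (0.60 ± 0.08). In each of these 4 the RC8 library is the highest. With changes between 0.59 and 0.61, Rab11a, Rab2b and Rab40c are just past 1.5-fold, and each missed it when 1 of the 2 count columns was used alone. Just under it were Rab5b at 0.52 ± 0.05 and Rab3a at 0.50 ± 0.13.

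Close relatives within a subfamily differed in their changes most in RC4. The difference was at least 1.5-fold, with a counting interval leaving out 0, for 1 of 11 pairs in AS, 6 of 10 in RC4 and 4 of 11 in RC8. The same share for pairs of other genes was not computed. Over all genes the quartiles of change were also widest in RC4 (−0.41 and 0.37, against −0.25 and 0.16 in AS and −0.31 and 0.31 in RC8). The RC4 pairs include Rab39b and Rab39 (1.02), where the Rab39 reads are in doubt, and the Rab5 genes enter more than 1 pair. All pairs share the NT library, and the intervals cover counting only. In RC4 the change of Rab7 exceeded that of Rab7b by 2.66 (95% counting interval 2.54 to 2.79), that of Rab5a exceeded Rab5b by 1.38 (1.22 to 1.54) and Rab5c by 0.92 (0.79 to 1.06), and that of Rab1a exceeded Rab1b by 0.91 (0.75 to 1.07). Rab8a exceeded Rab8b by 0.80 (0.57 to 1.04). Rab11a and Rab11b, both of recycling endosomes, were 0.35 apart in RC4 and 0.59 (0.48 to 0.69) in RC8. In RC8 the difference of Rab5a from Rab5b was −0.30 (−0.45 to −0.14), the other way round from RC4. For Rab2a and Rab2b the interval included 0 in AS and RC4, and in RC8 the difference was −0.61 (−0.90 to −0.32). For Rab4a and Rab4b the interval of the difference included 0 in every comparison, and in RC4 it ran from −0.59 to 0.17. These differences do not depend on the scaling of the libraries.

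**Figure D3:**
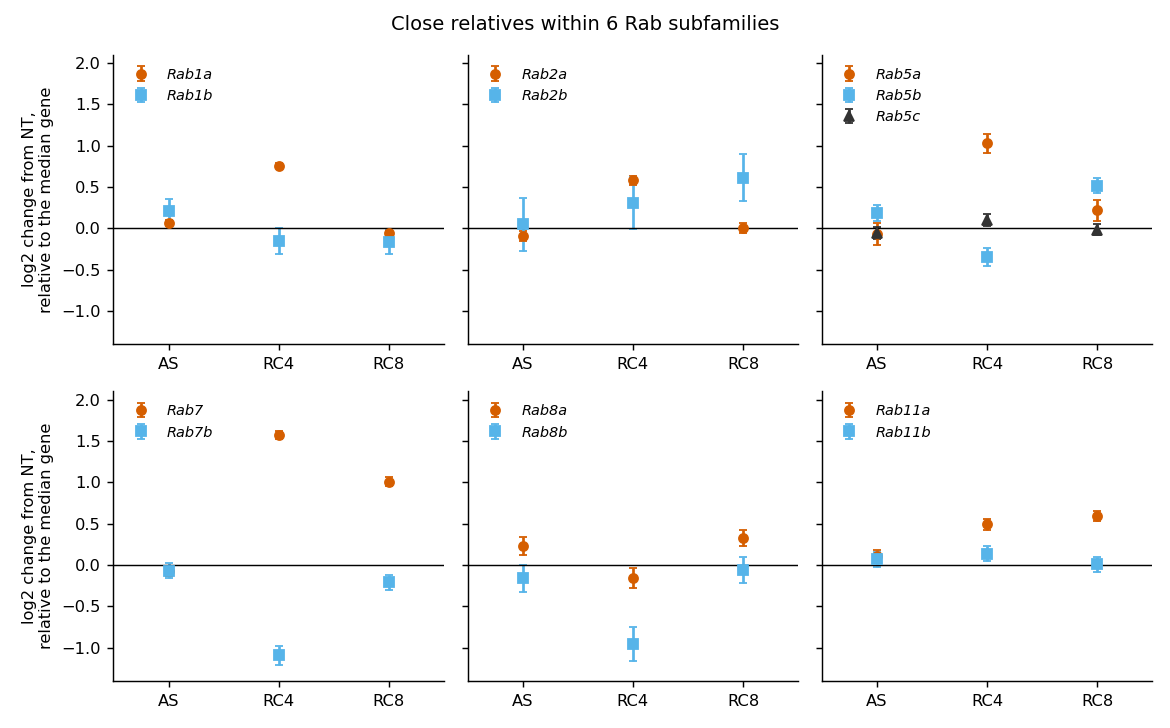
Log2 change from NT relative to the median gene of the members of 6 Rab subfamilies for AS, RC4 and RC8, as points with 95% counting intervals, 1 library per condition. Rab1a, Rab5a and Rab7 lie above their relatives in RC4, and Rab8b lies below Rab8a.

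Regulators and effectors of the family were read from lists of 8 genes of prenylation and recycling, 53 GEFs, 36 GAPs and 75 effectors. Together 129, 127 and 130 of these 172 genes were listed for AS, RC4 and RC8. In AS 0 were higher, against 2.07% of all genes, and 20 lower, or 15.5% against 10.2%. In RC4 18 were higher, or 14.2% against 15.0%, and 24 lower, or 18.9% against 17.4%, so that these shares are near those of all genes. In RC8 17 were higher, or 13.1% against 11.1%, and 4 lower, or 3.08% against 12.1%. In AS 7 of 39 GEFs fell, or 17.9% against 10.2% of all genes. They include Dennd1b (−1.4 ± 0.23), a GEF of Rab35, and Ric1 (−0.90 ± 0.10), part of a GEF of Rab6. Of the GAPs 6 of 27 fell (22.2%), including Usp6nl (−1.19 ± 0.14), a GAP acting on Rab5, and Tbc1d7 (−1.11 ± 0.25). Among the effectors 6 of 56 fell in AS (10.7%), and Myo5a, a myosin motor recruited by several Rabs, was the lowest (−1.33 ± 0.08).

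In RC4 9 of 55 effectors were higher, or 16.4% against 15.0% of all genes, and 10 lower, or 18.2% against 17.4%. Vps26a, a subunit of retromer, which Rab7 recruits, changed by 1.55 ± 0.03 from 2792 to 6749 reads, and Rab11fip1, an effector of Rab11, by 1.28 ± 0.14. Kif20a, a kinesin that binds Rab6, fell by 1.53 and Micall2, an effector of Rab13, by 1.24. Of the GEFs 6 of 39 were higher and 6 lower, 15.4% each, with Madd, a GEF of Rab3, at −1.27 ± 0.12 and Dennd5b at 0.94 ± 0.18. Of the GAPs 6 of 26 (23.1%) were lower, with Tbc1d4 at −1.64 ± 0.14, and 1 was higher, Tbc1d15, a GAP of Rab7, at 0.89 ± 0.05. Among the genes of prenylation and recycling, Chm, which encodes a Rab escort protein, was higher (0.76 ± 0.16), and Rabif and Rabggta were lower (−1.24 ± 0.23 and −0.68 ± 0.17). In RC8 6 of 39 GEFs were higher, or 15.4% against 11.1% of all genes, and 0 lower, against 12.1%. Hps1 (1.31 ± 0.13) and Dennd2a (1.05 ± 0.11) were ahead. Of the effectors 8 of 55 were higher (14.5%) and 2 lower (3.64%).

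PAS use was read from the deposited share of each gene's reads at each PAS. Of 41 Rab genes 27 had at least 2 PASs in the 3′-most exon in the AS table (65.9%, 95% Wilson interval 50.5% to 78.4%), whereas 42.4% of all genes did. Rab genes and all genes were not matched for number of reads, and the part of reads in this difference was not tested. REDu is the log2 change of the distal over proximal ratio for the 2 PASs of that exon whose shares changed most, so a value below 0 is a move toward the proximal PAS. It was called with the same 1.5-fold size and counting interval as the levels. The AS, RC4 and RC8 tables gave a REDu for 27, 29 and 27 Rab genes, of which 13 used different pairs of PASs in different comparisons.

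Rab genes called for PAS use were more often called toward the proximal than the distal PAS in each comparison, as were genes in general, though most Rab genes were not called proximal. In AS the median REDu was −0.32 (−0.47 to −0.13) beside −0.22 for all genes, 23 of 27 values were below 0, 5 Rab genes were called toward the proximal PAS (18.5% against 23.6% of all genes) and 0 toward the distal PAS (7.75% of all genes). In RC4 the median was −0.43 (−0.73 to 0.14) beside −0.37, with 11 of 29 called proximal (37.9% against 37.4%) and 3 distal (10.3% against 11.5%). In RC8 it was −0.35 (−0.62 to 0.47) beside −0.14, with 10 of 27 called proximal (37.0% against 27.9%) and 7 distal (25.9% against 20.9%). The shares of Rab genes in AS and RC4 are thus near those of all genes.

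**Figure D4:**
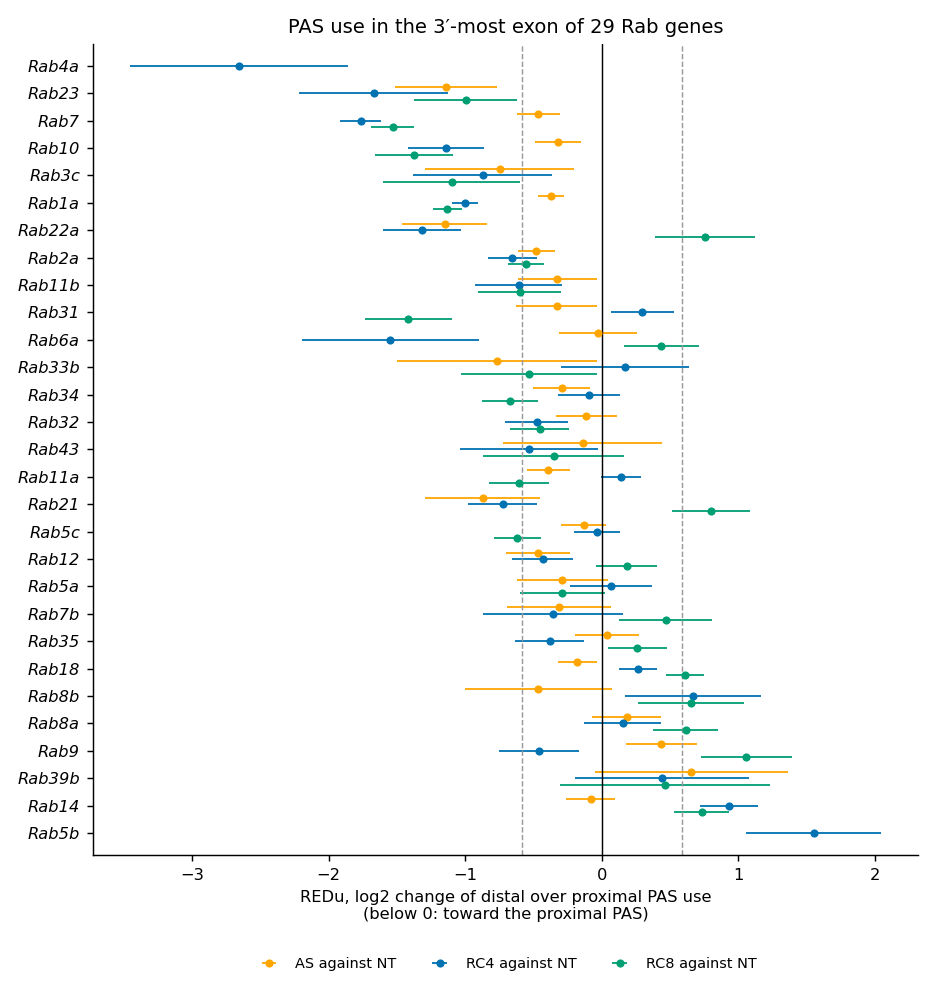
REDu of 29 Rab genes for AS, RC4 and RC8, each against NT, with 95% counting intervals and dashed lines at 1.5-fold; genes are ordered by their mean REDu and each condition has 1 library. Rab7, Rab1a and Rab10 lie far below 0 in RC4 and RC8, and Rab22a and Rab21 lie below 0 in AS and RC4 but above 0 in RC8, where other PASs were compared.

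The PASs of 4 genes on which these results turn are shown by the 30 bases of the transcript strand that end at each PAS (mm9), with the poly(A) signal words AATAAA and ATTAAA in capitals. They show which of the competing sites carry such a word.
Rab7 most proximal, chr6:87949797-87949826, minus strand: caATTAAAatgtataaattagtgtaaggaa
Rab7 154 nt downstream, chr6:87949643-87949672: gtagacacaagaattatgtacgccttttat
Rab7 281 nt downstream, chr6:87949516-87949545: cttaatatagtagtgtatacaatggataaa
Rab7 692 nt downstream, chr6:87949105-87949134: gtgatgccAATAAAatttaacaagaacaaa
Rab1a proximal, chr11:20125385-20125414, plus strand: gaatattgtaatttgttgcacactatgtaa
Rab1a 1445 nt downstream, chr11:20126830-20126859: cAATAAAatcatagtttactttgtattata
Rab22a most proximal, chr2:173527477-173527506, plus strand: aacttctgaattcctttcagtattcactta
Rab22a 178 nt downstream, chr2:173527655-173527684: aaatggtAATAAAgacatatgcctccgtga
Rab22a 2637 nt downstream, chr2:173530114-173530143: ggggtgtaccttcaagattcaaactgtcaa
Rab22a 5311 nt downstream, chr2:173532788-173532817: aaatattttgttAATAAAatactatgttta
Rab3c proximal, chr13:110851719-110851748, minus strand: acctttttctcaattaagctattgcagaaa
Rab3c 7324 nt downstream, chr13:110844395-110844424: ataaatatctaagagactatattcctgaaa

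Over the 93 PASs of the 3′-most exons of Rab genes, 26.9% had AATAAA in that window and 18.3% had ATTAAA, 1 of them having both, beside 36.6% and 12.8% of the 19269 PASs of all genes. Of the most distal PASs of Rab genes with several, 19 of 29 held either word, and of the most proximal ones 11 of 29, beside 59.8% and 29.4% of all genes. Only the transcript strand was searched. In the 4 genes shown the most distal PAS had AATAAA, except in Rab3c, which had neither word at either site, and in Rab7 the most proximal PAS had ATTAAA. Genomic A runs (6 or more in the 20 nt past the PAS) were found at 2 of the 93, the most distal PASs of Rab23 and Rab5b.

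Rab7 lost distal use while its level rose. The share of the PAS 692 nt downstream was 26.8%, 22.5%, 13.1% and 13.4% in NT, AS, RC4 and RC8, and that of the most proximal PAS 24.9%, 30.5%, 41.6% and 36.0%. In reads, the proximal PAS had 46.5, 52.7, 188 and 136 RPM, and the distal PAS 50, 38.9, 59.1 and 50.6 RPM. The distal isoform thus stayed between 38.9 and 59.1 RPM in the 4 libraries. Relative to the median gene on the log2 scale, the proximal PAS changed by 2.31 in RC4 and 1.54 in RC8, and the distal PAS by 0.54 and 0.01. The REDu was −1.77 ± 0.08 in RC4 and −1.53 ± 0.08 in RC8. In AS, where the PAS at 154 nt changed more than the distal one, it was −0.46 ± 0.08.

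Rab1a, with only 2 PASs, also lost distal use, and here the RPM at the distal PAS itself went down. Its distal share was 19.2% (Wilson interval 18.5% to 19.9%) in NT, then 15.5% (14.9% to 16.1%) in AS, 10.6% (10.1% to 11.1%) in RC4 and 9.79% (9.27% to 10.3%) in RC8. The proximal PAS gave 442, 470.5, 672 and 476 RPM and the distal PAS 105, 86.3, 79.6 and 51.7 RPM in NT, AS, RC4 and RC8. Relative to the median gene, the distal PAS changed by −0.24 ± 0.04 in AS, −0.10 ± 0.04 in RC4 and −1.03 ± 0.05 in RC8. In RC4 it was thus little changed on that scale. The gene's level in RC8 was that of NT, and the REDu was still −1.13 ± 0.06, after −1.0 ± 0.05 in RC4 and −0.37 ± 0.05 in AS. For Rab10 the PAS 170 nt downstream of the most proximal one went from 6.12% to 11.4% in RC4 and 12.8% in RC8, and the most distal, at 1988 nt, from 46.0% to 38.8% and 37.1%. Its REDu was −1.14 ± 0.14 and −1.37 ± 0.15. Between the most proximal and most distal PAS of Rab10 the values were smaller, −0.35 and −0.59.

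**Figure D5:**
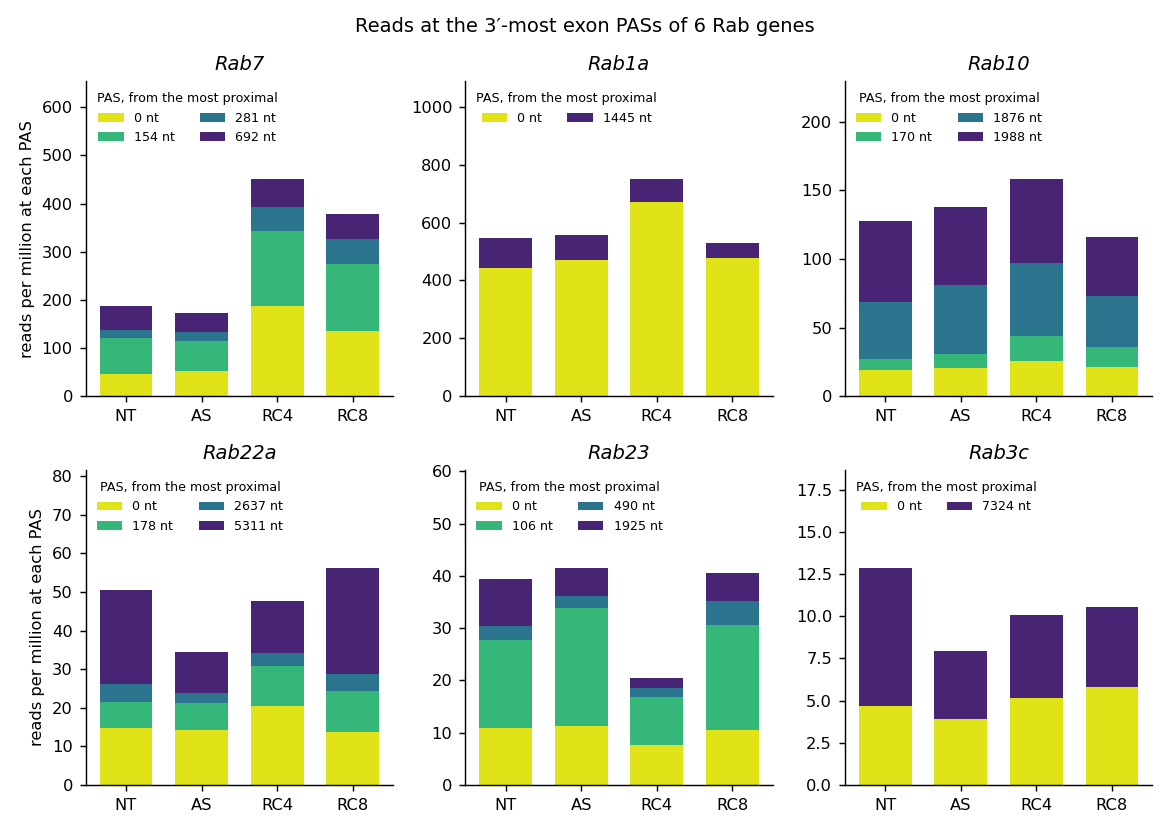
RPM at each PAS of the 3′-most exon of Rab7, Rab1a, Rab10, Rab22a, Rab23 and Rab3c in the 1 library of each condition, stacked from the most proximal PAS (light) to the most distal (dark), with distances in nt. The dark segment of Rab7 stays between 38.9 and 59.1 while the light ones grow in RC4 and RC8, and that of Rab22a shrinks in AS and RC4 and is back in RC8.

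Rab22a has its most distal PAS 5311 nt from the first, and it was used by 48.0%, 30.7%, 28.4% and 49.0% of its reads in NT, AS, RC4 and RC8. In AS the distal PAS went from 24.2 to 10.6 RPM and the proximal PAS from 14.7 to 14.3 RPM. The gene's total was 50.5 RPM in NT and 34.4 in AS, so nearly all of that difference lay at the 2 PASs farthest downstream. The REDu was −1.15 ± 0.16 in AS and −1.32 ± 0.15 in RC4, and the mean 3′ end shifted by −952 nt and −1088 nt from NT, that is upstream. At 8 h the same pair of PASs gave 0.29 ± 0.14. The PASs of Rab21 whose shares changed most were not the same in the 3 comparisons. The first PAS against that at 2716 nt gave −0.87 ± 0.22 in AS, and against that at 2929 nt −0.73 ± 0.13 in RC4. That second pair gave −0.40 in AS and −0.34 in RC8, so it lay below 0 in all 3 libraries. The first against the last PAS of Rab21 gave −0.37 ± 0.14 in AS, 0.095 ± 0.11 in RC4 and 0.46 ± 0.11 in RC8, none of them called.

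Rab3c and Rab23 were the 2 Rab genes called toward the proximal PAS in all 3 comparisons. In Rab3c the distal PAS, 7324 nt from the first, held 63.5%, 50.9%, 48.7% and 44.8% of the reads in NT, AS, RC4 and RC8, with REDu of −0.75 ± 0.28, −0.87 ± 0.26 and −1.10 ± 0.26. In Rab23 the most distal PAS, at 1925 nt and with a genomic A run past it, held 22.9%, 13.1%, 9.40% and 13.2%. The REDu of Rab23 was −1.14 ± 0.19, −1.67 ± 0.28 and −1.0 ± 0.19. Its distal PAS was compared with that at 106 nt in AS and RC8 and with the first in RC4. In RC4 the distal PAS of Rab23 had 1.92 RPM, against 9.05 in NT, beside a fall of the whole gene.

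The other proximal moves in RC4 were smaller or rest on few reads. Rab2a had −0.66 ± 0.09, but −0.32 ± 0.06 and no call between its first and last PAS, and Rab11b had −0.61 ± 0.16. Rab4a, of early and recycling endosomes, had the lowest value of all, −2.66 ± 0.41, from 198 reads in NT and for PASs 129 nt apart. Its proximal PAS went from 11.6% to 45.3%, and in the AS and RC8 tables that PAS was not listed. Rab6a had −1.55 ± 0.33, resting on a PAS at 5.78% in NT and 2.06% in RC4 that lies 257 nt past the annotated end of the gene. Without PASs under 10% its REDu was 0.21. In AS Rab33b had −0.77 ± 0.37, and −0.50 ± 0.31 and no call between its first and last PAS. In RC8 Rab31 had −1.42 ± 0.16 for PASs 106 nt apart, the distal one 103 nt past the annotated gene end and with 11% of the reads in NT and 4.60% in RC8. Rab34 (−0.67 ± 0.10), Rab5c (−0.62 ± 0.09), Rab11a (−0.61 ± 0.11) and Rab11b (−0.60 ± 0.15) were also called toward the proximal PAS in RC8. The PASs compared lie 197 nt apart in Rab34 and 167 nt apart in Rab5c.

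Calls toward distal PASs were made for Rab5b, Rab14 and Rab8b in RC4 and for 7 genes in RC8. Rab5b had 1.55 ± 0.25 in RC4, with the distal share going from 3.23% to 8.91%. Its distal PAS lies 1086 nt past the annotated end, has a genomic A run past it, and was not listed in the AS and RC8 tables. Rab14 had 0.93 ± 0.11 in RC4 and 0.73 ± 0.10 in RC8 for the PAS at 559 nt against the last one, while the first against the last gave −0.23 and 0.16. Rab8b had 0.67 ± 0.25 in RC4 for PASs 111 nt apart, while its first against its last PAS gave −0.19 ± 0.37. The mean 3′ end of Rab8b shifted by −163 nt from NT in RC4, that is upstream. Rab9, whose level was lower in both recovery libraries, had 1.06 ± 0.17 in RC8, with reads at the proximal PAS going from 14.9 to 4.69 RPM and at the distal PAS, 196 nt further on, from 70.7 to 46.4 RPM. Rab22a (0.75), Rab21 (0.80), Rab8b (0.65), Rab8a (0.61) and Rab18 (0.61) were the others in RC8. The pairs of Rab9, Rab8b, Rab22a and Rab21 in RC8, and that of Rab8b in RC4, lie less than 200 nt apart. In proximal and distal calls alike, reads start upstream of the PAS and were assigned to PASs by a model of that distance.

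Level and PAS use did not go together in a fixed way. All 9 Rab genes higher in RC4 had a REDu there. Of the 9, 5 were called toward the proximal PAS (Rab1a, Rab6a, Rab7, Rab10 and Rab21), against 37.4% of all genes with a REDu. Some of these calls depend on the PASs compared. Between the first and last PAS, Rab10 (−0.35) and Rab21 (0.095) were not called in RC4. Without PASs under 10%, Rab6a had 0.21 in RC4. Rab5a, whose level also rose, kept its distal PAS at 81.6% in NT and 82.3% in RC4 (REDu 0.07 ± 0.15). Rab23 had a lower level in RC4 together with a proximal move. Of the 41 Rab genes 18 were called by level in at least 1 comparison, or 43.9% against 49.4% of all genes. Of 29 with a REDu 22 were called by it, or 75.9% against 69.0%, and 28 of 41 were called by either, or 68.3% against 64.6%. These shares are near those of all genes. Called by neither were 13, including Rab1b, Rab13, Rab24, Rab32, Rab35 and Rab39.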

How the data were processed

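Per the labels and the study's methods, the authors trimmed QuantSeq FWD reads with bbmap, aligned them to mm9 with STAR (2.5.2a in the submitters' processing notes) and ran MAAPER with PASs of PolyA_DB. The deposited gene tables hold raw counts of reads, in 2 columns per library whose difference the sources used here do not give, and these were summed and not used as replicates. The QuantSeq REV samples are not analysed here. The deposited PAS tables hold the proportion (fraction, 0 to 1) of a gene's reads that the authors' model assigned to each PAS, which was printed as a percent. Both kinds of table were made separately for AS, RC4 and RC8, each with the same NT library. NT reads of 26 of the 41 genes were equal in all tables that list them, and the largest difference was 3.16%. The tables also hold the authors' own comparisons (P values, relative length and expression differences and the PASs chosen for them), which were not used.

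Counts were summarised in Python 3.11.15 (numpy 2.4.6, pandas 2.3.3, scipy 1.17.1). Standard errors on the log2 scale came from Poisson counts, and for REDu from the proportion times the gene's reads. Intervals of single genes and PASs cover counting error only, since each condition has 1 library, and no molecular identifiers were counted. Intervals of medians and of the share of Rab genes with several PASs were taken over genes. Genes are not replicates, so those intervals do not cover differences between repeated experiments. Code was tested on simulated data. Alternatives were scaling to RPM, TMM factors (edgeR 4.0.16, R 4.3.3), at least 200 reads, each count column alone, a 2-fold size, the most proximal against the most distal PAS, PASs of at least 10%, and leaving out Rab39, which was chosen after seeing the data. Sequences and gene positions came from the mm9 reference with GENCODE vM1, in which all 41 genes were found, 4 under older names. The text names every Rab gene called by level or REDu, the 10 with the highest NT level, and up to 2 called genes per direction from each pathway list, besides a few others near a threshold. A result for 1 gene of these lists is not reported here. The Rab genes and all lists were chosen with earlier results of these data known.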

Additional observations from a re-analysis of the deposited data

Results flagged for a closer look

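The REDu of 2 Rab genes was called toward proximal PASs in 2 conditions and toward a distal PAS in the other. This difference between conditions was not tested and has 1 library on each side. For Rab22a it was −1.15 in AS and −1.32 in RC4 but 0.75 in RC8. The RC8 value compares the first PAS with the one 178 nt downstream, a pair that gave 0.08 ± 0.20 in AS and 0.11 ± 0.18 in RC4, and the pair 5311 nt apart used for AS and RC4 gave 0.29 ± 0.14 in RC8. For Rab21 it was −0.87 in AS and −0.73 in RC4 but 0.80 in RC8. The RC8 pair, PASs 172 nt apart, gave 0.03 ± 0.18 in AS and 0.82 ± 0.15 in RC4, so on that pair RC4 and RC8 had the same sign. Sign changes on an unchanged pair, called in RC8 only, were seen in Rab9, Rab18 and Rab31. Rab9 had 0.44 ± 0.13, −0.46 ± 0.15 and 1.06 ± 0.17 in AS, RC4 and RC8, for PASs 196 nt apart. Rab31 had −0.33 ± 0.15, 0.30 ± 0.12 and −1.42 ± 0.16, for PASs 106 nt apart. Rab18 had −0.18 ± 0.07, 0.27 ± 0.07 and 0.61 ± 0.07, for PASs 442 nt apart.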

How the results depend on the processing

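No paired analysis was possible because each condition has 1 library, and no library could be left out. TMM scaling moved no call of a Rab gene. Scaled to RPM, RC4 had 5 Rab genes higher and 7 lower, with a median of −0.13. Shares of all genes called are not given for RPM scaling or for the settings that follow. With at least 200 reads RC4 had 5 higher and AS 0 lower. With the first count column alone AS had 1 higher and 0 lower, and RC8 3 higher. At 2-fold, 4 and 1 were higher in RC4 and RC8, and 0, 1 and 0 were lower in AS, RC4 and RC8, while REDu was called below 0 for 2, 7 and 5 and above 0 for 1 in RC4 and 1 in RC8. With the most proximal against the most distal PAS, REDu was called above 0 for 1 Rab gene in RC4 and 4 in RC8, and turned its sign in RC4 for Rab14 (−0.23), Rab8b (−0.19) and Rab21 (0.095). With PASs of at least 10%, Rab6a turned to 0.21 in RC4. At 200 reads the median gene is taken over fewer genes, which put Rab10, Rab43 and Rab6a at 0.57, 0.56 and 0.56 in RC4, just under 1.5-fold, and Rab39b was left out. The 2-fold counts follow from the stricter size, and for the other settings the cause was not tested. The other 73 summary values kept their side or stayed within 1.5 times. Depth limits genes under 200 reads in a library, such as Rab39b, Rab2b and Rab4a.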

Other observations

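Of the 59 mouse genes in RefSeq whose symbol fits the Rab pattern, 18 were in none of the 3 gene tables. They include Rab25 and Rab17, known from epithelia, Rab27a and Rab38, known from melanosomes and secretory granules, and Rab3b, Rab3d, Rab26 and Rab37, known from regulated secretion. Tables list genes past a minimum of reads, so no level can be given for them.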
